A study of Mus musculus with 24 samples.

Results

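The 36 genes described here are Ppara, the gene of the nuclear receptor PPAR-alpha, and 35 genes of fatty acid oxidation that are PPAR-alpha targets or enzymes of the same pathways. They were chosen by name from the 15160 genes of the deposited tables, and all 36 were present. Of these, 16 encode mitochondrial proteins, 10 peroxisomal proteins, 2 (Crat and Eci2) proteins found in both compartments, and 7 proteins of the cytosol, the endoplasmic reticulum or the cell membrane. Liver RNA of male mice was sequenced from the 3′ end of each transcript, 1 library per mouse, in 4 groups that crossed genotype with dietary methionine. The wild-type mice (WT) carried the floxed Nfe2l2 alleles without Cre (NRF2fl/fl), and the knockout mice (NRF2 KO, NRF2fl/(alb)) were littermates carrying the same floxed alleles and a Cre transgene under the albumin promoter, which excises sequence of exon 5 of Nfe2l2, the gene of the stress-responsive factor NRF2, in hepatocytes and leaves it in other liver cells. Both genotypes ate either a control diet of elemental amino acids with 0.86% methionine (Con) or the same kind of diet with 0.17% methionine (MR). Both diets were without cysteine. By the study's methods all mice first ate the Con diet and were assigned to Con or MR at 8 weeks of age. The study's methods give 8 weeks on the diets, then calorimetry and a further stay in home cages before harvest. All mice were killed after a 4 h fast at a labelled age of 5 months. The comparisons ask how methionine restriction changed these genes in each genotype, and whether the loss of NRF2 altered that response.

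Fatty acids enter the hepatocyte, are bound by fatty acid binding protein and joined to coenzyme A, and are then broken down by beta-oxidation. Mitochondria take in most long-chain fatty acids through the carnitine shuttle, while peroxisomes shorten very long, branched or dicarboxylic chains and release the products as shorter acyl groups. In the liver PPAR-alpha pairs with RXR, binds a direct repeat of the AGGTCA half-site spaced by a single base (DR1), and drives these genes during fasting and after fibrate drugs, with the Cyp4a omega-hydroxylases and the acyl-CoA thioesterases among its most inducible targets in rodents.

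Promoter windows of 300 bases, 250 before and 50 after a RefSeq start site (GRCm38.p6), were found for 28 of the 36 genes, in 31 windows. The DR1 motif, AGGTCA repeated after any base N, was searched on both strands. With 0 mismatches it was in 0.0396% of all 32851 windows and in no window of these genes, with at most 1 in 0.554% of all windows and in those of Fabp1 and Acot12, and with at most 2 in 3.86% and in those of Fabp1, Acot12, Acot4 and Slc25a20. The 250 bases before the start are shown for the first 3, because MR moved each of these genes in at least 1 comparison. The lines are the forward strand, and the match to the motif, which reads on the opposite strand, is in capitals.
Fabp1, chr6:71199629-71199878: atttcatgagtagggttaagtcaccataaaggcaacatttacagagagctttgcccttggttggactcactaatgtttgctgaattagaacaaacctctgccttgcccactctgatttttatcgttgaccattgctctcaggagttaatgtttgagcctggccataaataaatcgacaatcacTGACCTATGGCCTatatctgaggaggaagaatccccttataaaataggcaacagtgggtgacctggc
Acot12, chr13:91741271-91741520: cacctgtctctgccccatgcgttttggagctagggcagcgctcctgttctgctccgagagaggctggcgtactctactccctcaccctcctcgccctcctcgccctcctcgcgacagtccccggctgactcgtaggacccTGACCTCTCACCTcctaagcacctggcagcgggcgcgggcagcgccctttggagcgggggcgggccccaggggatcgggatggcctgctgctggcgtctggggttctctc
Acot4, chr12:84038129-84038378: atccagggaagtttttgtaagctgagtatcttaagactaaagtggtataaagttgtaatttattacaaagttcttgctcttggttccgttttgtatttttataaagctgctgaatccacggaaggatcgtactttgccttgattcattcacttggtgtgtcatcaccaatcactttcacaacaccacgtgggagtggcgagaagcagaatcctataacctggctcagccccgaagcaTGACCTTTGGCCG
The match of Fabp1 lies 67 to 55 bases before the start and that of Acot12 110 to 98 bases before it, each with 1 mismatch. That of Acot4 ends at the base before the start and has 2 mismatches. A match is a description of the letters only. No binding was measured, and Fabp1 fell with MR while Acot4 and Acot12 rose.

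Position links several of the genes. Acot2, Acot1, Acot4 and Acot3 follow each other on the forward strand of chromosome 12 between 83987861 and 84060402 (GENCODE M21, GRCm38). The transcripts of Acot3 and Acot4 overlap the exons of Gm49366 on the same strand and of 4732463B04Rik on the other. Of the stretches of 50 bases in the last 500 bases of each transcript, 38.8% in Acaa1b and 31.6% in Acaa1a occur in the other gene of this pair, and 35.4% in Hadhb occur in Gm13910 or Gm9108. The share was 9.8% in Eci2, 7.2% in Acot1, 5.9% in Cyp4a10, 5.6% in Decr2, 5.5% in Acot3 and 5.2% in Acot4, and at most 3.1% in every other gene of the 36. Reads of such pairs could be split or lost in counting, so the levels of these genes, Acaa1a, Acaa1b and Hadhb above all, are uncertain. Reads in the exons that Acot3 and Acot4 share with Gm49366 on the same strand could be lost too, which adds to the uncertainty of their levels.

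Of the 24 libraries, 22 enter the values given first. WT_CON_7604 and WT_MR_7612 are left out, since the study removed 2 mice as outliers of a principal component analysis, so n is 5 in each WT group and 6 in each NRF2 KO group. Reads counted on genes ran from 6197291 to 22068338 per mouse. Reads are counted near the 3′ end of Nfe2l2 and the tables do not give where they lie against the excised sequence, so the counts of Nfe2l2 do not check the deletion. They do set 1 library apart: the library labelled WT_CON_7607 had 324 CPM (CPM are reads per gene with all libraries brought to the same size), the other 9 WT mice 94.0 to 125 CPM, and the NRF2 KO mice 202 to 339 CPM. Calls of the 36 genes that change without that library are named beside their values. A score of clock genes (the log2 CPM of Dbp and its co-phased genes minus that of Bmal1 and its partners) also differed between groups, at 0.70 to 2.92 in WT Con, 2.46 to 3.90 in WT MR, 3.70 to 4.08 in NRF2 KO Con and 3.82 to 4.11 in NRF2 KO MR. Hepatocyte markers (6 of 6 detected) summed to 80277 to 108747 CPM in WT Con, 71028 to 86863 in WT MR, 103374 to 123180.0 in NRF2 KO Con and 88863 to 110537 in NRF2 KO MR. Of these 6, 3 were called lower with MR over both genotypes, and 2 were called higher in NRF2 KO over both diets. Bile duct markers (5 of 6 tested, 4 of which fell with MR over both genotypes) were lower on MR, at 49.00 to 72.6, 20.9 to 28.3, 31.7 to 53.1 and 20.6 to 28.96 CPM in the same order of groups. Stellate markers (6 of 6, of which 5 fell) summed to 386 to 649, 339 to 425, 447 to 522 and 373 to 488 CPM, and macrophage markers (5 of 6, of which 4 fell, Clec4f not listed) to 221 to 305, 177 to 198, 188 to 291 and 166 to 234 CPM. Endothelial markers (6 of 6, of which 1 rose and 1 fell) summed to 250 to 302, 272 to 297, 257 to 299 and 288 to 325 CPM. In whole liver, fewer cells of a type and less RNA per cell cannot be told apart, and the part of these marker differences in the results was not tested.

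With MR, transcripts of several peroxisomal and thioesterase genes rose, while 13 of the 16 mitochondrial genes were not called over both genotypes and those that were moved by little. In WT mice 6 of the 36 genes were called at an adjusted p under 0.05 (edgeR's quasi-likelihood test, adjusted over 13336 genes), or 16.7%, beside 13.8% of all genes tested. All 6 were higher, beside 6.91% of all genes called higher and 6.91% called lower. They were Acot3, Acot4 and Acaa1a of the peroxisome, Hadhb and Acadm of the mitochondrion, and Acot12 of the cytosol. Without the library labelled WT_CON_7607, Acadm and Acaa1a were not called and 4 were. In NRF2 KO mice 6 genes were called as well, 16.7% beside 12.6% of all genes. Acot3, Acot4 and Ehhadh were higher (6.23% of all genes were) and Hadha, Acaa2 and Fabp1 lower (6.34% of all genes were). Decr2 was called as well without the library labelled WT_CON_7607, which made 7. Scaled by library size alone, 9 of the 36 were called in WT and 7 in NRF2 KO, all higher, where 73.2% and 86.1% of all called genes were higher in place of 50% and 49.6%. Acot3 and Acot4 were called in both genotypes, 4 genes in WT alone and 4 in NRF2 KO alone, but calls in a single genotype do not show that the genotypes differed, and the test of that difference, given below, called none of the 36.

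Averaged over both genotypes, the MR effect was called for 13 of the 36 genes, 36.1% beside 27.4% of all genes. Of these, 11 were higher (13.3% of all genes were) and 2, Acaa2 and Fabp1, lower (14.1% of all genes were). By compartment, 6 of the 10 peroxisomal genes rose and none fell, and their median log2 fold change was 0.25. Of the 16 mitochondrial genes 2 rose and 1 fell, with a median of 0.05, and of the 7 others 3 rose and 1 fell, with a median of 0.22. The median over all 13336 genes was -0.01. In WT the peroxisomal and mitochondrial medians were 0.34 and 0.06, and in NRF2 KO 0.23 and 0.03. Every one of the 10 peroxisomal genes had a value above 0 in WT, and 7 did in NRF2 KO, beside 49.0% and 49.2% of all genes. Of the 13 calls over both genotypes, that of Acadm was lost without the library labelled WT_CON_7607 (0.19, adjusted p = 0.051), and 6 were lost with the clock score in the model. Of these 6, the log2 fold change moved from -0.44 to -0.16 in Fabp1, from -0.25 to -0.18 in Acaa2 and from 0.36 to 0.28 in Abcd2, while it was as large or nearly so in Ehhadh (1.05 and 1.05), Acaa1a (0.19 and 0.19) and Cyp4a14 (1.05 and 1.16). With the clock score 8 of the 36 genes were called, beside 21.6% of all genes. Scaling by library size alone moved the median of all genes to 0.12 and the share of called genes that were higher from 48.5% to 79.7%, and it gave 18 of the 36 genes higher and 1 lower.

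**Figure D1:**
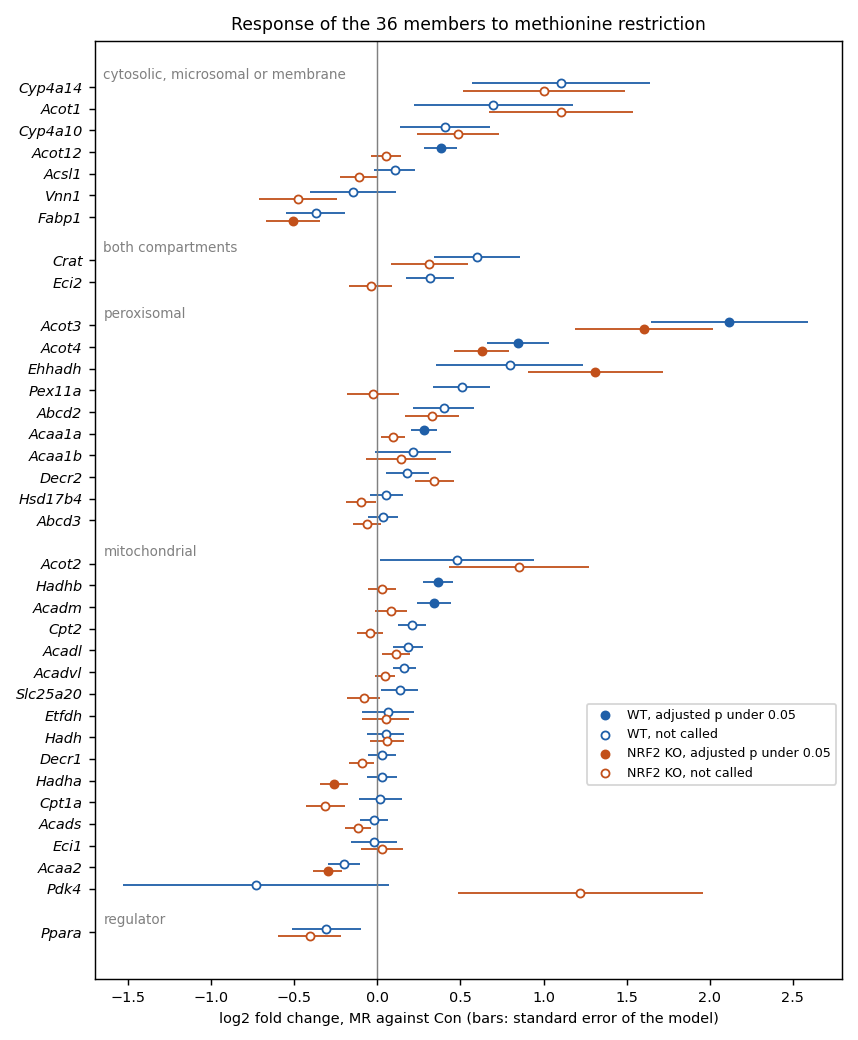
Log2 fold change of MR against Con for each of the 36 genes, in WT (blue) and NRF2 KO (orange), grouped by the compartment of the protein. Points are model estimates, bars the SE derived from the test and filled points adjusted p under 0.05. Acot3 lies farthest to the right in both genotypes, at 2.12 and 1.61, while the mitochondrial genes other than Pdk4 and Acot2 lie within 0.5 of 0.

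Acot3, a peroxisomal thioesterase that frees long-chain fatty acids from coenzyme A, had the largest log2 fold change of the 36 genes in both genotypes. Its level was 7.51, 15.1, 21.2, 22.9 and 23.1 CPM in the WT Con mice and 24.4, 43.3, 74.4, 116 and 133 CPM in the WT MR mice. It ran from 11.7 to 71.3 CPM with a median of 46.9 in NRF2 KO Con, and from 104 to 224 CPM with a median of 133 in NRF2 KO MR. All MR mice lay above all Con mice of their genotype, which held for 2 of the 36 genes in WT (the other was Acaa1a) beside 9.32% of all genes, and for 2 in NRF2 KO (the other was Hadha, lower on MR) beside 5.45% of all genes. The rise was 4.34-fold in WT, a log2 fold change of 2.12 ± 0.47 (SE, adjusted p = 0.0067), and 3.04-fold in NRF2 KO, 1.61 ± 0.42 (SE, adjusted p = 0.017). With the clock score in the model the WT change was 1.498 and no longer called (adjusted p = 0.23).

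Acot4, its neighbour, is a peroxisomal thioesterase of succinyl and other dicarboxylyl-CoA. It was at 11.1, 14.8, 15.2, 16.3 and 17.8 CPM in WT Con and 16.9, 22.8, 26.9, 32.9 and 36.2 CPM in WT MR, at 12.5, 19.1, 21.8, 22.2, 22.97 and 28.05 CPM in NRF2 KO Con and 27.1, 32.1, 32.5, 32.8, 33.99 and 37.1 CPM in NRF2 KO MR. In WT 4 of 5 MR mice, and in NRF2 KO 5 of 6, lay above every Con mouse of the genotype. The log2 fold change was 0.84 ± 0.19 (SE, adjusted p = 0.0047) in WT and 0.63 ± 0.17 (SE, adjusted p = 0.016) in NRF2 KO. The WT value was 0.61 (adjusted p = 0.18) with the clock score in the model.

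Ehhadh, the bifunctional enzyme that hydrates and dehydrogenates acyl-CoA in the peroxisomal spiral, varied widely between mice. The WT Con mice had 21.1, 21.8, 28.7, 35.97 and 47.7 CPM and the WT MR mice 39.2, 48.5, 56.7, 61.1 and 61.9 CPM. In NRF2 KO Con it ran from 8.47 to 63.6 CPM with a median of 17.9, and in NRF2 KO MR from 28.2 to 87.2 CPM with a median of 66.97. In each genotype 4 MR mice lay above every Con mouse. KO_CON_7623 and KO_CON_7622, at 63.6 and 35.96 CPM, lay inside the MR range of their genotype, and the other 4 NRF2 KO Con mice below it. MR changed it by a log2 fold of 1.31 ± 0.41 (SE, adjusted p = 0.042) in NRF2 KO and 0.80 ± 0.44 (SE, adjusted p = 0.25) in WT, and 1.05 ± 0.30 (SE, adjusted p = 0.014) over both. The NRF2 KO call was lost in 9 of the 22 fits that left out a mouse. All 9 left out a mouse of the 2 NRF2 KO groups compared, which hold 6 mice each. The values ran from 1.13 without KO_CON_7621 to 1.82 without KO_CON_7623. The call was also lost in the fit of the 2 NRF2 KO groups alone.

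The remaining calls in the peroxisome were small. Acaa1a, a thiolase of the last step, was at 58.1, 62.9, 68.00, 72.2 and 72.3 CPM in WT Con and 74.2, 77.3, 81.00, 84.5 and 88.4 CPM in WT MR, groups that did not overlap. Its log2 fold change in WT was 0.28 ± 0.08 (SE, adjusted p = 0.021), and 0.24 (adjusted p = 0.056) without the library labelled WT_CON_7607. Over all 24 mice it was 0.23 (adjusted p = 0.091). In NRF2 KO it was 0.10. Decr2, which reduces double bonds that block the spiral, was at 391 ± 67.5 CPM on Con and 443 ± 31.97 CPM on MR in the WT mice, and 382 ± 86.7 and 484 ± 37.1 CPM in the NRF2 KO mice (mean ± SD), a log2 fold change of 0.26 ± 0.09 (SE, adjusted p = 0.028) over both genotypes. In NRF2 KO it was 0.34 ± 0.12 (SE, adjusted p = 0.055), and 0.34 and called without the library labelled WT_CON_7607 (adjusted p = 0.044). Abcd2, a transporter of very long acyl-CoA into the peroxisome, was at 41.2 ± 6.36 CPM on Con and 54.6 ± 20.1 CPM on MR in the WT mice, and 55.1 ± 6.64 and 69.2 ± 9.56 CPM in the NRF2 KO mice, a change of 0.36 ± 0.12 (SE, adjusted p = 0.032) over both. The WT MR mice ran from 31.9 to 80.6 CPM in Abcd2, which spans the WT Con range. Without any one of 7 mice Abcd2 was no longer called.

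Of the 4 peroxisomal genes called in no comparison, Pex11a, a membrane protein of peroxisome division, had the largest value, 0.51 ± 0.17 (SE, adjusted p = 0.051) in WT against -0.03 in NRF2 KO. Of the WT MR mice, 3 of 5 were above every WT Con mouse. The value passed the threshold by DESeq2 (adjusted p = 0.027) and over all 24 mice (adjusted p = 0.036). Acaa1b, the paired thiolase, had 0.21 and 0.14, Hsd17b4, the D-bifunctional enzyme, 0.05 and -0.10, and Abcd3, a transporter of the peroxisomal membrane, 0.03 and -0.06. None of these 3 passed the test in either genotype.

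**Figure D2:**
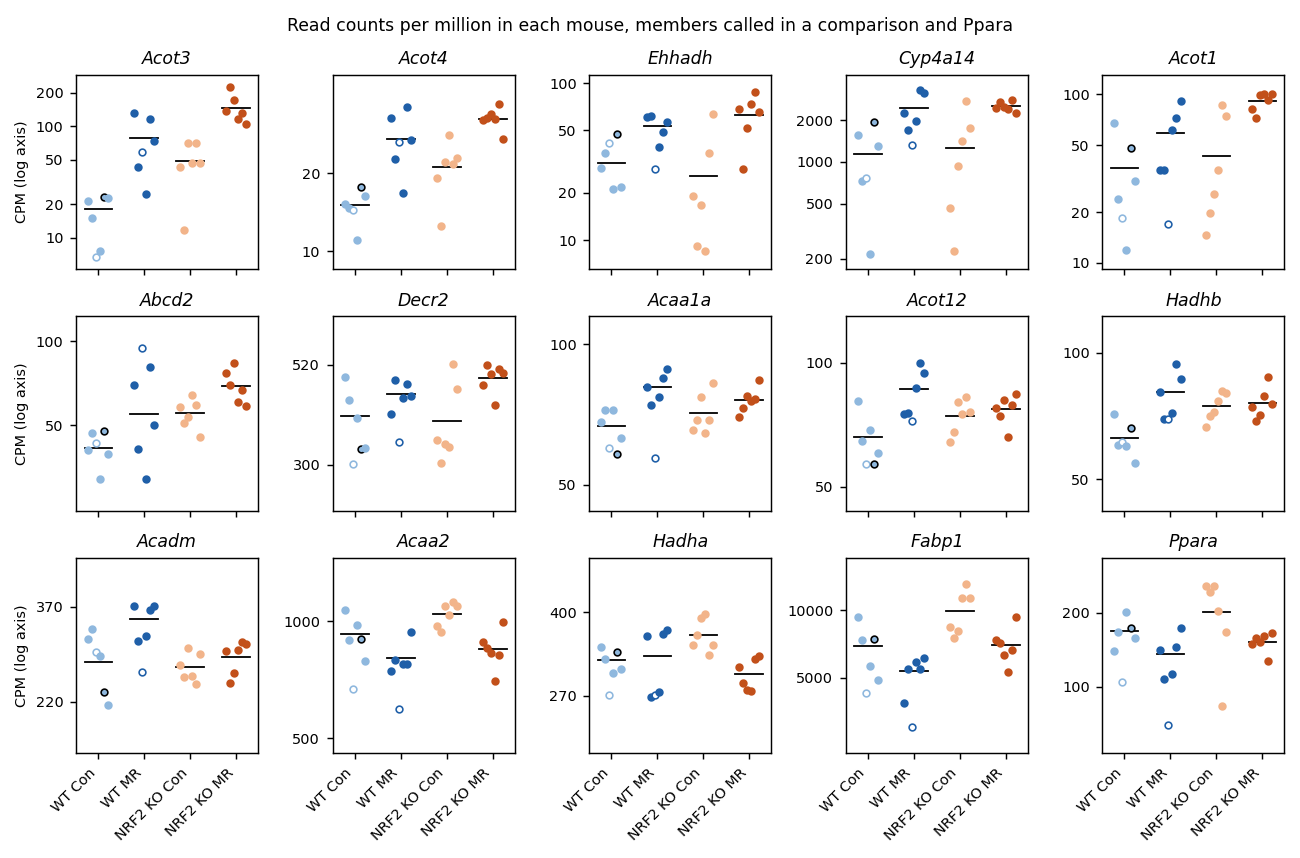
CPM (log axis) in each mouse for the 14 genes called in a comparison and Ppara. Points are mice, the line is the mean of the mice used, open points are WT_CON_7604 and WT_MR_7612, and the black ring is the library labelled WT_CON_7607. Acot3 in NRF2 KO runs from 11.7 to 71.3 CPM on Con and from 104 to 224 CPM on MR.

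Among the 16 mitochondrial genes the changes were smaller and went both ways. Hadhb, the thiolase subunit of the trifunctional protein, was at 54.6, 60.2, 60.4, 66.4 and 71.4 CPM in WT Con and 69.6, 71.8, 80.8, 86.9 and 94.02 CPM in WT MR, with 4 of 5 MR mice above every Con mouse. The log2 fold change was 0.36 ± 0.09 (SE, adjusted p = 0.009) in WT and 0.03 ± 0.08 (SE, adjusted p = 0.87) in NRF2 KO. Acadm, the medium-chain dehydrogenase, was at 216, 232, 282, 309.7 and 327 CPM in WT Con and 306, 316, 364, 371 and 371 CPM in WT MR. The lowest 2 of the Con mice were WT_CON_7608 and the library labelled WT_CON_7607, and 3 of 5 MR mice were above the highest. Its change in WT, 0.34 ± 0.10 (SE, adjusted p = 0.03), was no longer called without that library (0.29, adjusted p = 0.075), over all 24 mice (0.26, adjusted p = 0.092), or without WT_CON_7608, WT_MR_7609, WT_MR_7615 or WT_MR_7616. In NRF2 KO it was 0.08 (adjusted p = 0.63).

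In NRF2 KO mice 2 mitochondrial genes fell. Hadha, the other subunit of the trifunctional protein, ran from 327 to 397 CPM with a median of 352 in NRF2 KO Con and from 276 to 326 CPM with a median of 299 in NRF2 KO MR, with every MR mouse below every Con mouse. It was at 319.9 ± 16.3 CPM in WT Con and 326 ± 49.7 CPM in WT MR (SD, n = 5). The log2 fold change was -0.26 ± 0.08 (SE, adjusted p = 0.039) in NRF2 KO and 0.03 ± 0.09 (SE, adjusted p = 0.89) in WT. Acaa2, the soluble thiolase and the mitochondrial gene of the list with the most reads, ran from 941 to 1119 CPM with a median of 1064 in NRF2 KO Con and from 702 to 997 CPM with a median of 839.6 in NRF2 KO MR. It was at 793, 898, 899, 977 and 1072 CPM in WT Con and 744, 776, 779, 794 and 938 CPM in WT MR. Its change was -0.30 ± 0.09 (SE, adjusted p = 0.025) in NRF2 KO, -0.20 ± 0.10 (SE, adjusted p = 0.16) in WT and -0.25 ± 0.06 (SE, adjusted p = 0.0053) over both. Both calls in NRF2 KO were lost over all 24 mice and when counts were scaled by library size alone. That of Hadha was also lost without any one of 9 mice, and that of Acaa2 without any one of 3.

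The other 12 mitochondrial genes were called in no comparison by edgeR without a covariate. By DESeq2 Acadvl was called for MR in WT (0.16 by edgeR, DESeq2 adjusted p = 0.038), for MR over both genotypes and for NRF2 KO on Con and over both diets, and with the clock score Cpt2 was called for MR in WT (0.42, adjusted p = 0.019) and over both genotypes. Cpt1a, the enzyme that commits long chains to the mitochondrion, was at 197 ± 15.96 CPM on Con and 199 ± 50.8 CPM on MR in the WT mice, and 246 ± 24.1 and 198 ± 25.2 CPM in the NRF2 KO mice, with a log2 fold change of -0.32 in NRF2 KO (adjusted p = 0.078) and 0.02 in WT. Cpt2, Slc25a20, Acadl, Acadvl, Acads, Hadh, Eci1, Decr1 and Etfdh, which carry acylcarnitine in, open the spiral, turn it or pass on its electrons, had values over both genotypes from -0.07 in Acads to 0.15 in Acadl. Acot2, the mitochondrial thioesterase of the same cluster as Acot3, was at 40.9 ± 19.7 CPM on Con and 57.1 ± 14.95 CPM on MR in the WT mice, and 49.6 ± 41.3 and 88.9 ± 21.1 CPM in the NRF2 KO mice, with a log2 fold change of 0.48 ± 0.46 (SE, adjusted p = 0.55) in WT and 0.85 ± 0.42 (SE, adjusted p = 0.2) in NRF2 KO. Pdk4, a kinase that spares glucose when fat is burnt, rested on 738 reads in all 22 mice, at 2.69 ± 1.51 CPM on Con and 1.61 ± 0.914 CPM on MR in the WT mice, and 1.32 ± 1.64 and 2.72 ± 2.92 CPM in the NRF2 KO mice, and its values of -0.73 and 1.22 carried standard errors of 0.80 and 0.74.

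Cyp4a14, an omega-hydroxylase of fatty acids in the endoplasmic reticulum, was called higher on MR over both genotypes and in neither alone. By the study's qPCR, with more mice per group, it was higher on MR in each genotype. It was at 218, 730.4, 1294, 1567 and 1929 CPM in WT Con and 1697, 1963, 2242, 3172 and 3292 CPM in WT MR. In NRF2 KO Con it ran from 227 to 2766 CPM with a median of 1177, and in NRF2 KO MR from 2242 to 2805 CPM with a median of 2483. The NRF2 KO Con mice were the most spread, with KO_CON_7618 lowest and KO_CON_7622 highest, and the highest Con mice of both genotypes reached the MR range. On the log2 scale the change was 1.11 ± 0.54 (SE, adjusted p = 0.18) in WT, 1.00 ± 0.49 (SE, adjusted p = 0.19) in NRF2 KO and 1.05 ± 0.36 (SE, adjusted p = 0.037) over both, where it was called. That call was lost without any one of 7 mice.

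Acot1, the cytosolic thioesterase next to Acot2, was at 11.9, 23.8, 30.8, 48.3 and 68.1 CPM in WT Con and 35.7, 35.8, 61.8, 72.5 and 91.3 CPM in WT MR. It ran from 14.7 to 87.2 CPM with a median of 30.6 in NRF2 KO Con and from 72.2 to 101 CPM with a median of 96.2 in NRF2 KO MR, where all but 2 of the 6 MR mice lay above every Con mouse. Its change over both genotypes was 0.90 ± 0.32 (SE, adjusted p = 0.044), a call lost without any one of 15 of the 22 mice and over all 24 mice (adjusted p = 0.055). Acot12, a cytosolic thioesterase of acetyl-CoA, was at 56.7, 60.4, 64.3, 68.4 and 80.6 CPM in WT Con and 74.9, 75.3, 86.6, 94.4 and 99.6 CPM in WT MR, with 3 of 5 MR mice above every Con mouse. The log2 fold change was 0.38 ± 0.10 (SE, adjusted p = 0.012) in WT and 0.05 ± 0.09 (SE, adjusted p = 0.76) in NRF2 KO.

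Fabp1, the liver fatty acid binding protein and the gene with the most reads of the 36, moved the other way. It was at 4890.0, 5655, 7339, 7437 and 9287 CPM in WT Con and 3850.2, 5451, 5478, 5851 and 6097 CPM in WT MR, and it ran from 7543 to 13094 CPM with a median of 9843 in NRF2 KO Con and from 5324 to 9290.2 CPM with a median of 6875 in NRF2 KO MR. In NRF2 KO 5 of 6 MR mice lay below every Con mouse, while in WT only WT_MR_7609 did. The log2 fold change was -0.51 ± 0.16 (SE, adjusted p = 0.042) in NRF2 KO, -0.37 ± 0.18 (SE, adjusted p = 0.17) in WT and -0.44 ± 0.12 (SE, adjusted p = 0.0084) over both. With the clock score in the model the value over both genotypes was -0.16 (adjusted p = 0.42), and the NRF2 KO call was lost when counts were scaled by library size alone, with all 24 mice, and without any one of 8 mice. Of the remaining genes outside the organelles, Cyp4a10, a paralogue of Cyp4a14, had 0.41 in WT and 0.48 in NRF2 KO, Acsl1, which activates long chains, 0.10 and -0.11, and Vnn1, a pantetheinase, -0.15 and -0.48, all without a call by edgeR. Crat, which moves acetyl groups to carnitine, had 0.60 and 0.31, and Eci2, an isomerase of double bonds, 0.32 and -0.04, also without a call by edgeR. DESeq2 called Crat and Cyp4a10 for MR over both genotypes (adjusted p = 0.023 and 0.031).

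The message of the receptor itself was called in none of the 7 comparisons. Ppara was at 139.6, 158, 168, 173 and 202 CPM in WT Con and 108, 112, 142, 145 and 173 CPM in WT MR. It ran from 83.9 to 257 CPM with a median of 224 in NRF2 KO Con, where KO_CON_7622 was lowest, and from 127 to 166 CPM with a median of 155 in NRF2 KO MR. The groups overlapped in both genotypes, with lower means on MR. Its log2 fold change was -0.31 ± 0.21 (SE, adjusted p = 0.36) in WT, -0.41 ± 0.19 (SE, adjusted p = 0.16) in NRF2 KO and -0.36 ± 0.14 (SE, adjusted p = 0.063) over both, the last called by DESeq2 (adjusted p = 0.036) and not by edgeR.

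The loss of NRF2 gave few calls among these genes. On the Con diet 0 of the 36 were called by edgeR, beside 2.07% of all genes (0.802% higher and 1.27% lower), and no gene of the 36 was without overlap between the genotypes, beside 1.83% of all genes. At an unadjusted p under 0.05 there were 9, beside 14.4% of all genes, and DESeq2 called 3 (Acadvl, Acot3 and Eci2), beside 3.38%. On the MR diet 0 were called, beside 1.93% of all genes (0.555% higher and 1.38% lower), with 4 at an unadjusted p under 0.05, beside 13.9% of all genes, and 0 called by DESeq2, beside 3.72%. Eci2 came nearest on Con, at 165 ± 35.9 CPM on Con and 205 ± 38.1 CPM on MR in the WT mice, and 225 ± 35.8 and 219 ± 21.6 CPM in the NRF2 KO mice, a change of 0.45 ± 0.14 (SE, adjusted p = 0.091). Without the library labelled WT_CON_7607 it was 0.54 and called (adjusted p = 0.037), as was its value over both diets (0.32, adjusted p = 0.047). On MR the mice of the genotypes did not overlap in 1 gene, Acadm, beside 4.6% of all genes. All 6 NRF2 KO MR mice were below all 5 WT MR mice in Acadm, and the change was -0.30 ± 0.10 (SE, adjusted p = 0.13).

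Averaged over both diets 2 genes were called, 5.56% of the 36 beside 5.45% of all genes, and both were higher in NRF2 KO (2.21% of all genes were, and 3.24% were lower). Acot3 differed by 1.17 ± 0.31 (SE, adjusted p = 0.035), from its values on Con (1.43 ± 0.45 (SE, adjusted p = 0.12), with 5 of 6 NRF2 KO Con mice above every WT Con mouse) and on MR (0.92 ± 0.43 (SE, adjusted p = 0.36)). Fabp1 differed by 0.46 ± 0.12 (SE, adjusted p = 0.025), from 0.52 on Con and 0.39 on MR. With the clock score in the model, which itself differs between the genotypes, Acot3 was at 0.67 (adjusted p = 0.6) and Fabp1 at 0.95 (adjusted p = 0.016). Acot3 was also no longer called without any one of 8 mice.

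The interaction tests whether the MR response differed between genotypes. It called 0 of the 36 genes, beside 0.045% of all genes (0.0225% above 0 and 0.0225% below), with a smallest adjusted p of 0.49. At an unadjusted p under 0.05 there were 5 by edgeR, beside 7.56% of all genes, and 5 by DESeq2, beside 7.49%, which called 0 as well. The 5 by edgeR were Hadhb (-0.34 ± 0.12 (SE, adjusted p = 0.49)), Acot12 (-0.33), Hadha (-0.29), Pex11a (-0.53) and Cpt2 (-0.26), each with a smaller or more negative response in NRF2 KO. Of the 36 genes, 28 had an interaction below 0 and 8 above, where 50.6% of all genes were above 0. By sign alone, 19 genes were above 0 in both genotypes, 5 below 0 in both, and 12 opposite, of which 10 were above 0 in WT. For Acot3 the interaction was -0.51 ± 0.61 and for Cyp4a14 -0.11 ± 0.72 (SE), so a difference of the size of these errors was not detectable.

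**Figure D3:**
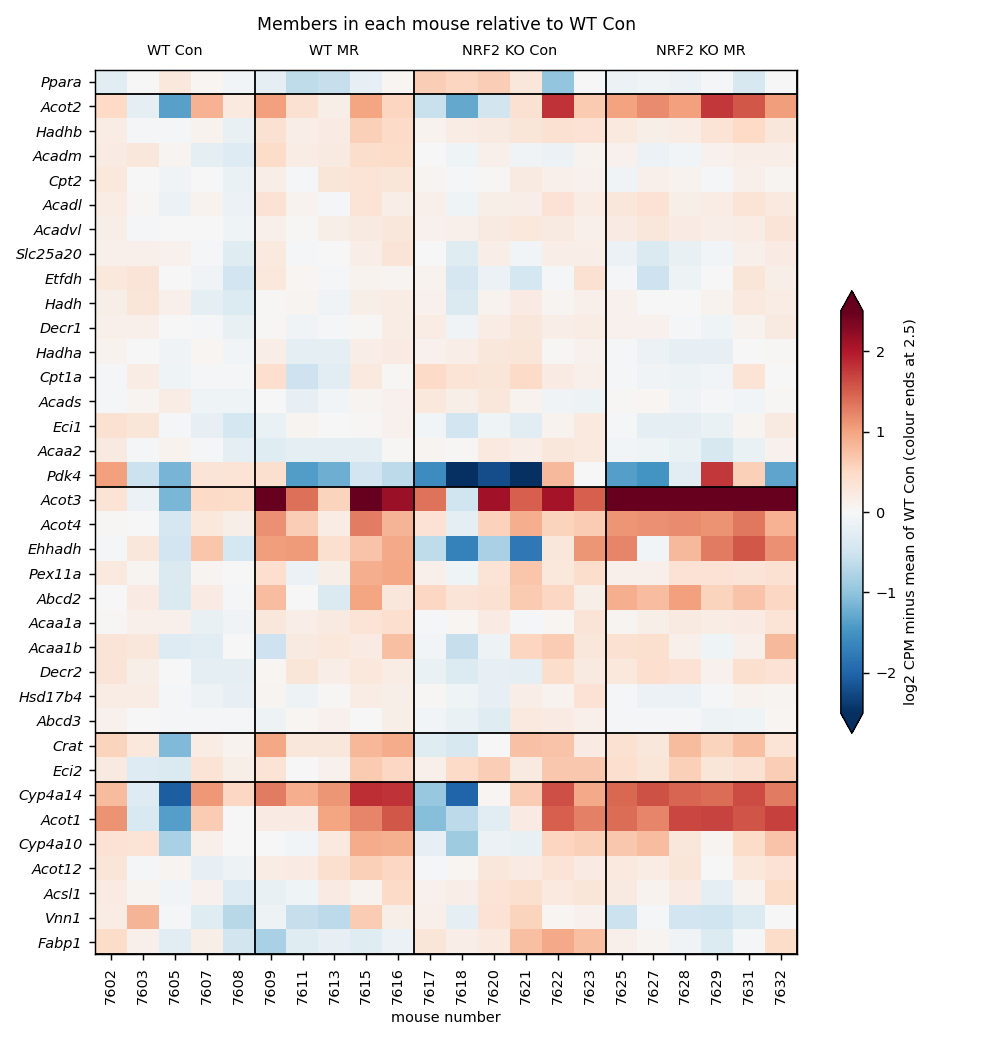
Log2 CPM of each gene in each of the 22 mice minus the mean of the WT Con mice (red higher, blue lower), with lines between the groups and the compartments. The rows of Pdk4, Ehhadh, Cyp4a14 and Acot1 to Acot4 carry the strongest colours, KO_CON_7618 and WT_CON_7605 are low in Cyp4a14 (227 and 218 CPM), and most mitochondrial rows are pale throughout.

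The genes differed widely in how much mice of a single group varied. The SD of log2 CPM within groups had a median of 0.154 over the mitochondrial genes, 0.304 over the peroxisomal genes and 0.416 over the cytosolic, microsomal and membrane genes. It was lowest in Acadvl (0.0788) and high in Cyp4a14 (0.942), Acot3 (0.795), Acot1 (0.772), Acot2 (0.745) and Ehhadh (0.717). Pdk4 had 1.304, with few reads behind it. The 1.29-fold change of Hadhb in WT was called, while the 2.15-fold change of Cyp4a14 in WT was not.

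Several of the variable genes were high or low in the same mice. Cyp4a14 was taken as the reference because the study also measured it by qPCR, and its relations had been seen in these data before they were tested. Each gene's log2 CPM was set as a deviation from its group mean in the 22 mice, and Cyp4a14 was compared with each of the other 35 genes. Pearson's r was at least 0.5 for 13 of 35 genes, 37.1%, and for 7.15% of all other genes tested, with medians of 0.35 and 0.01. The highest was Acot2 (r = 0.91, rho = 0.79, permutation p = 2.0e-05 and 4.2e-04, adjusted 7.0e-04 and 0.0073 over the 35 relations). Acot1 followed (r = 0.86, rho = 0.78), then Crat (r = 0.83, rho = 0.69), Cyp4a10 (r = 0.78, rho = 0.70), Acot3 (r = 0.72, rho = 0.66) and Acot4 (r = 0.71, rho = 0.75). In all, 10 of the 35 relations had both adjusted p-values under 0.05, 3 of them with mitochondrial genes (Acot2, Acadl and Hadhb) and 3 with peroxisomal genes (Acot3, Acot4 and Pex11a). Without the 2 mice farthest from the median, WT_CON_7605 and KO_CON_7618, r was 0.85 for Acot2, 0.86 for Acot1, 0.69 for Crat, 0.47 for Acot3 and 0.49 for Acot4. Without the NRF2 KO Con group it was 0.88, 0.84, 0.82, 0.66 and 0.63 in the same order. The relations of Acot3 and Acot4 thus rested in part on those 2 mice. Both values of a point come from the same library, and the Acot genes share some sequence.

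Not every gene of the pathway followed. Ehhadh had r = 0.47, rho = 0.28 and Ppara r = -0.55, rho = -0.38, and neither passed after adjustment (permutation p = 0.11 and 0.29, adjusted 0.21 and 0.38 for Ehhadh, and permutation p = 0.047 and 0.12, adjusted 0.1 and 0.21 for Ppara). Without the NRF2 KO Con group r for Ppara was -0.19, so its value rested on that group, in which KO_CON_7622 had the highest Cyp4a14 and the lowest Ppara level. Cpt1a (0.03), Acadm (-0.11) and Acaa1a (-0.06) showed values of r near 0.

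**Figure D4:**
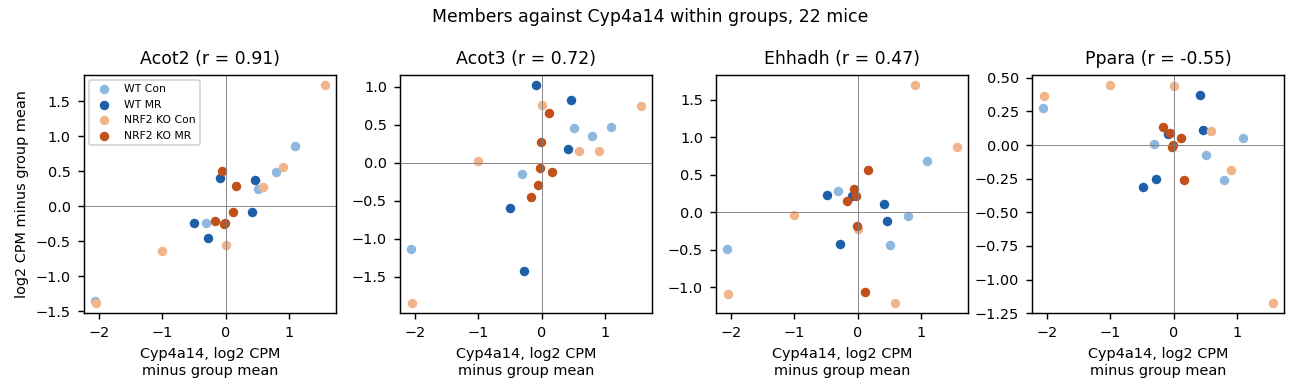
Deviation of log2 CPM from the group mean in each of 22 mice, for Cyp4a14 (horizontal axis) and Acot2, Acot3, Ehhadh and Ppara (vertical axes), coloured by group. Acot2 rises with Cyp4a14 over the whole range (r = 0.91), Acot3 less closely (r = 0.72), Ehhadh is scattered (r = 0.47), and Ppara is lowest in the mouse with the highest Cyp4a14 deviation (r = -0.55).

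The other genes of the pathway were taken from 7 lists of 133 genes, of which 127 were in the tables and 124 tested. Over both genotypes MR raised 20 and lowered 24 of them, 35.5% beside 27.4% of all genes (13.3% higher and 14.1% lower), with a median of -0.02. Scaled by library size alone 41 were higher and 16 lower. The counts of each list below are to be read against the same shares of all genes. Of the 37 other peroxisomal genes tested 7 rose and 4 fell, with a median of -0.03. Hao1, which oxidizes glycolate, fell from 206 ± 34.7 to 116 ± 10.5 CPM in WT and from 241 ± 25.1 to 122 ± 23.1 CPM in NRF2 KO (-0.90 ± 0.08 (SE, adjusted p = 6.5e-08)), Nudt7, a hydrolase of coenzyme A, fell as well (-0.90), and Hacl1, a lyase of branched chains, rose (0.70).

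Among the 19 other mitochondrial genes tested 3 rose and 2 fell, with a median of 0.03. The largest were Hsd17b10, a dehydrogenase of short branched chains, which fell (-0.49 ± 0.10 (SE, adjusted p = 0.0012)), and Acad12, an acyl-CoA dehydrogenase, and Acot13, another thioesterase, which rose (0.46 and 0.41). Of the 8 genes of ketone body metabolism 1 rose and 4 fell, with a median of -0.20. Slc16a6, a transporter that exports ketone bodies from the liver, fell from 25.5 ± 6.08 to 11.99 ± 2.55 CPM in WT and from 26.8 ± 9.21 to 10.98 ± 1.181 CPM in NRF2 KO (-1.19 ± 0.14 (SE, adjusted p = 4.6e-06)). Oxct1, which uses ketone bodies and is low in liver, fell (-0.38), and Slc16a7, a monocarboxylate transporter, rose (0.38).

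In omega-oxidation 1 of 12 genes rose and 4 fell. Cyp4a31, which shares 3′ sequence with Cyp4a10, rose (1.65 ± 0.38 (SE, adjusted p = 0.0034)), while Cyp4a12b and Cyp4a12a, which are higher in male liver and whose reads are uncertain as they are close copies, fell (-2.49 and -1.63), with -3.59 and -2.74 in NRF2 KO against -1.38 and -0.52 in WT, where neither was called. The interaction was not called for either (adjusted p = 0.63 and 0.66).

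Of 19 other PPAR-alpha targets tested 6 rose and 5 fell. Fgf21, the fasting hormone, rose from 5.96 ± 3.34 to 31.1 ± 21.2 CPM in WT and from 6.73 ± 4.09 to 27.98 ± 20.5 CPM in NRF2 KO (2.27 ± 0.41 (SE, adjusted p = 5.0e-04)), Krt23, a keratin, rose (1.00) and Cidea, a lipid droplet protein at under 1 CPM, fell (-0.81). In uptake and activation 1 of 15 rose and 4 fell: Fabp2 (-0.74) and Fabp4 (-0.60), both fatty acid binding proteins, fell, and Acsl3, an acyl-CoA synthetase, rose (0.47). On Con, Fabp2 had means of 131 CPM in WT and 133 CPM in NRF2 KO, and Fabp4 21.1 and 17.2 CPM. Fabp4 is also an adipocyte marker, and the adipocyte list (2 of 6 tested, Plin1, Lep and Retn not listed) summed to 18.1 to 27.1 CPM on Con and 11.6 to 13.04 on MR in WT, and to 14.1 to 28.3 and 10.6 to 17.9 in NRF2 KO. Of 14 receptors and cofactors Ppargc1b, a coactivator, rose (0.41) and Creb3l3, a partner of PPAR-alpha on the Fgf21 gene, fell (-0.27).

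By genotype over both diets, 4 of these 124 genes were higher and 8 lower in NRF2 KO. That is 9.68%, beside 5.45% of all genes (2.21% higher and 3.24% lower). Lpin1, a coactivator of PPAR-alpha and a phosphatidate phosphatase, was higher (0.62 ± 0.13 (SE, adjusted p = 0.0054)), and Fitm1, a protein of lipid droplets, and Cd36, a fatty acid translocase, were lower (-1.73 ± 0.25 (SE, adjusted p = 2.3e-04), and -0.93 ± 0.20 (SE, adjusted p = 0.0068)). With the clock score in the model none of these 3 was called (adjusted p = 0.37, 0.082 and 0.084). In that fit 0.652% of all genes were called.

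**Figure D5:**
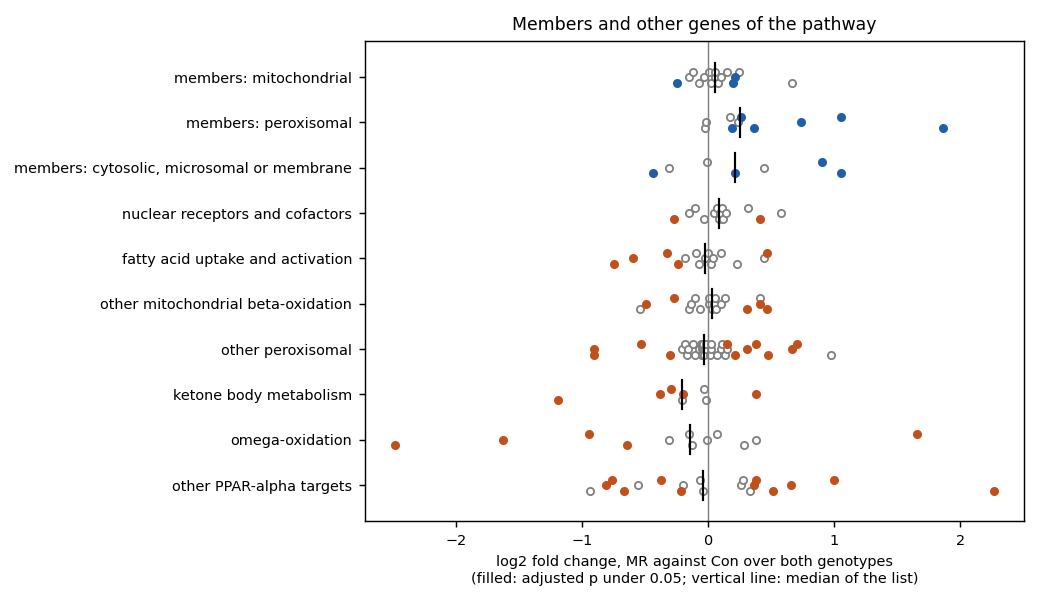
Log2 fold change of MR against Con over both genotypes for the genes described here (top 3 rows) and for the 7 lists of other genes of the pathway. Points are genes, filled where the adjusted p is under 0.05, and the vertical line is the median of the row. The peroxisomal row has a median of 0.25 with 6 of 10 genes called higher, while the row of other peroxisomal genes has a median of -0.03.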

How the data were processed

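Liver RNA of 24 mice, 1 library each, was prepared with the Lexogen QuantSeq 3′ kit, which reads near the end of each transcript, so reads per gene do not scale with transcript length. The labels give a read length of 50 bases and the study's methods 75. The authors deposited raw read counts per gene (GRCm38) and a DESeq2-normalized table of the same counts (a signal scaled by a size factor per mouse, per the submitters' processing notes with DESeq2 1.18.1 in R 3.4.3). The aligner and its settings are not given in the sources used here. Gene symbols came from the normalized table and were joined to the raw counts by Ensembl identifier.

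The raw counts were tested here with edgeR 4.0.16 in R 4.3.3: genes were filtered with filterByExpr, which kept 13336 of 15160 genes and all 36 of those described, library sizes were normalized by TMM, and a mean for each of the 4 groups was fitted by robust quasi-likelihood. P-values were adjusted by Benjamini-Hochberg over the 13336 genes, with a threshold of 0.05, and all such tests were two-sided. The libraries held 6197291 to 22068338 counts over the 22 mice. The labels give a separate number to each mouse, so the spread is between animals. CPM are on TMM library sizes, and errors are SD over mice or SE, which rest on the numbers of mice above. The SE was derived from the test, as the absolute log2 fold change over the square root of its F statistic. The interaction compares the MR effect in NRF2 KO with that in WT, and the comparisons over both average 2 groups with equal weight. These comparisons share groups with each other.

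The members and all gene lists were chosen with earlier results of these data known. The text gives values in every group for genes called in at least 1 comparison and for Ppara, and of each list of other pathway genes names at most the 3 called genes with the largest change. Within-group relations with Cyp4a14 used 100000 permutations of mice within groups, two-sided. They had been seen before the test was fixed.

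Alternatives were DESeq2 1.42.0, its size factors or library size alone in place of TMM, no filter or at least 10 counts in every mouse, limma 3.58.1 on log2 of the deposited normalized counts plus 1, only the groups compared, all 24 mice with and without quality weights, a clock score as covariate, and each mouse left out. Promoters came from RefSeq tables of GRCm38.p6. The promoters of 8 genes and all protein sequences were not analysed here.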

Additional observations from a re-analysis of the deposited data

Results flagged for a closer look

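In 64 sets of 5 or 6 mice (the 14 genes called in a comparison, Ppara and Nfe2l2, in 4 groups), 3 held a mouse far from the rest by Dixon's criterion, which chance alone gives in about 1 of 20 sets. Acaa2 was at 938 CPM in WT_MR_7616, above the next WT MR mouse at 794 CPM. Fabp1 was at 3850.2 CPM in WT_MR_7609, below the next WT MR mouse at 5451 CPM. Nfe2l2 was at 324 CPM in the library labelled WT_CON_7607, where the next WT Con mouse had 125 CPM.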

How the results depend on the processing

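Of 849 alternative values of the single-gene calls, 747 stayed called, 102 lost the call and none changed sign. Each call had 22 fits that left out a mouse and 9 or 10 other alternatives. For a call within 1 genotype, some of those 22 left out a mouse of the other genotype. The pooled count therefore does not show how firm a single call was. Over the alternatives the median MR effect of the peroxisomal genes lay between 0.25 and 0.48 (WT) and between 0.19 and 0.38 (NRF2 KO), and that of the mitochondrial genes between 0.01 and 0.21 (WT) and between -0.03 and 0.18 (NRF2 KO), highest with the clock score in WT and with library size alone in NRF2 KO, where the median of all genes was 0.15. The MR calls of Hadhb, Acot12 and Decr2 were kept in every alternative fit. So were those of Acot3 and Acot4 in NRF2 KO and over both genotypes. Among the counts of the 36 genes called, MR in NRF2 KO gave 6 in the first fit, beside 12.6% of all genes. It gave 3 with all 24 mice (9.13% of all genes) and 10 with quality weights (20.2%). MR over both genotypes gave 8 in place of 13 with the clock score, beside 21.6% of all genes in place of 27.4%. NRF2 KO on Con gave 3 in place of 0 by DESeq2, beside 3.38% of all genes in place of 2.07%. NRF2 KO on MR gave 1 in place of 0 with quality weights (4.53% of all genes) and 1 with only the groups compared (4.7%). NRF2 KO over both diets gave 4 in place of 2 with all 24 mice (6.63% of all genes) and 5 by DESeq2 (7.42%). It gave 1 with the clock score (0.652%) and 1 with library size alone (4.2%).

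Among all genes, MR in WT called 1158 with the clock score in place of 1843, and MR in NRF2 KO called 2693 with quality weights and 2785 with library size alone in place of 1677. NRF2 KO on Con called 7 with the clock score, 451 by DESeq2 and 99 with only the groups compared, in place of 276. NRF2 KO on MR called 604, 496 and 600 with quality weights, by DESeq2 and with only the groups compared, in place of 258. NRF2 KO over both diets called 87 with the clock score in place of 727, and the interaction 3 with it and 35 by DESeq2 in place of 6. The cause of these shifts was not tested.

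With each mouse left out in turn, the genes called of the 36 ran from 4 (without the library labelled WT_CON_7607) to 8 (without WT_CON_7602) for MR in WT, from 2 (without KO_MR_7628) to 9 (without KO_CON_7622) for MR in NRF2 KO, from 10 to 18 for MR over both genotypes, from 0 to 1 for NRF2 KO on Con, and from 1 to 4 for NRF2 KO over both diets, and stayed at 0 for NRF2 KO on MR and the interaction. All genes called ran from 181 (without WT_CON_7603) to 314 (without WT_CON_7607) for NRF2 KO on Con and from 3 (without KO_CON_7617) to 12 (without WT_CON_7607) for the interaction. No paired analysis was possible because each mouse has a number of its own and no number is shared between groups. Genes with few reads, such as Pdk4, and genes whose mice vary widely, such as Cyp4a14, limit what 5 or 6 mice a group can show.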

Other observations

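Hadha and Hadhb, whose products form a single protein complex, start beside each other on chromosome 5 and are read in opposite directions. With MR, Hadhb had a log2 fold change of 0.36 in WT and 0.03 in NRF2 KO, and Hadha 0.03 and -0.26. Their interactions, -0.34 for Hadhb and -0.29 for Hadha, were not called (adjusted p = 0.49 and 0.59 by edgeR).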
